A study of Mus musculus with 12 samples.

Results

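Very long genes, those with more than 500 kb between their annotated ends, carried 3146 regions of open chromatin in their interior in mouse embryoid bodies, of 67666 regions found in at least 2 libraries (4.65%). A region was a group of ATAC-seq peak summits, from any of 8 libraries of days 3 and 5, joined where neighbouring summits lay within 250 bp. It was counted as a long-gene region when it lay in a protein-coding gene longer than 500 kb (RefSeq, GRCm38.p6, the assembly of mm10), more than 1 kb from both gene ends, and had a summit in at least 2 of the 8 libraries. Another 1953 regions in the same genes had a summit in 1 library and were left out. The 226 long genes span 502 to 2390 kb, with a median of 735 kb, and 11 of them lie on X.

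ATAC-seq marks open chromatin by the insertion sites of Tn5 transposase, and a summit is the point of strongest signal in a called peak. Embryonic stem cells, freed from irradiated fibroblast feeders by plating, were grown as embryoid bodies in mesodermal medium. The groups were Foxk1 knockout (KO) at day 5 and at day 3 and the iHA-Foxk1 line, kept without doxycycline, at day 5 and at day 3, with 2 libraries each. Foxk1 is a forkhead transcription factor, and every library carries the label for no doxycycline, the KO included. The labels do not say how many clones a line represents, nor whether replicates were differentiated separately, so every spread and p-value below measures the difference between libraries, which may be technical.

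The lists held 48391 and 42129 summits in KO at day 5, 59006 and 53456 in KO at day 3, 14519 and 34040 in iHA-Foxk1 at day 5, and 53473 and 54100 in iHA-Foxk1 at day 3. Read depth is unknown, so lists were cut to the same number of best-ranked summits before they were compared, 14519 where all 8 entered. In the 2 lists that the labels place at day 5 of KO, the peak names read D7, and the labels were followed. The shortest list, replicate 1 of iHA-Foxk1 day 5, had a summit within 1 kb of an end of 2 of 8 streak and mesoderm markers, against 6 of 8 in each of the other 7 libraries, where Pdgfra and Gata4 had none. Of 4 pluripotency markers it held 0 and its replicate 2 held 2, against 4 in the other 6 libraries, and of 6 neural markers the 2 held 1 and 5, against 5 or 6 elsewhere. Of 4 fibroblast markers it held 1, against 2 or 3 elsewhere. Summits do not check the deletion: each library except the shortest list had a summit within 1 kb of an end of Foxk1, the KO libraries included.

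Genes of this length are mostly known from the nervous system, where they code for adhesion molecules of the synapse, guidance receptors, scaffolds and ion channels. They replicate late, several coincide with common fragile sites, and many use alternative starts deep inside the gene, each giving a shorter transcript. An accessible site inside such a gene can therefore be an enhancer of that gene, an enhancer of a neighbour, or an internal promoter, and summit lists alone do not separate these.

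Some long-gene regions lay at internal starts. On the chromosomes with a table of starts, 68 of 3037 regions lay within 250 bp of an annotated start of their own gene, in 52 genes. The windows printed here run from 250 bases before to 50 bases after a start (RefSeq, GRCm38.p6), read 5′ to 3′ on the strand of the gene, with every CpG dinucleotide in capitals. The first 4 starts had a region in all 8 libraries: Nrxn3 (chr12:89812233-89812532, plus strand), Nav2 (chr7:49245939-49246238, plus strand), Robo1 (chr16:72662899-72663198, plus strand) and Dmd (chrX:85048045-85048344, plus strand). The other 4 were among the few whose region differed between groups: Cntnap2 (chr6:47244146-47244445, plus strand) and Ank2 (chr3:126998403-126998702, minus strand) at day 5, Magi2 (chr5:19907268-19907567, plus strand) between days in iHA-Foxk1, and Kcnip4 (chr5:49285610-49285909, minus strand) between days in KO. They are shown because these starts differ in CpG content.
Nrxn3: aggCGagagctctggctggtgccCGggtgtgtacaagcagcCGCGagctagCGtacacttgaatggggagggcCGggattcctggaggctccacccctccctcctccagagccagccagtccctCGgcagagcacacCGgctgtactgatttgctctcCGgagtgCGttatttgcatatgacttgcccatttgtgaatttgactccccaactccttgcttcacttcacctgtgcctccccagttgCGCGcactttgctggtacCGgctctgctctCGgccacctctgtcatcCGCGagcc
Nav2: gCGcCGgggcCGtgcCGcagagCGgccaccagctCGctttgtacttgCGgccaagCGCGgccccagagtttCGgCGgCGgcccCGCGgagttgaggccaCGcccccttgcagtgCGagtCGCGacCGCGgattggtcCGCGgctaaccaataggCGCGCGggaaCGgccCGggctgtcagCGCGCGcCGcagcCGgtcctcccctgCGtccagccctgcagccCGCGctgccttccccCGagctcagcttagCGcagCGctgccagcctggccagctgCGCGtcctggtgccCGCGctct
Robo1: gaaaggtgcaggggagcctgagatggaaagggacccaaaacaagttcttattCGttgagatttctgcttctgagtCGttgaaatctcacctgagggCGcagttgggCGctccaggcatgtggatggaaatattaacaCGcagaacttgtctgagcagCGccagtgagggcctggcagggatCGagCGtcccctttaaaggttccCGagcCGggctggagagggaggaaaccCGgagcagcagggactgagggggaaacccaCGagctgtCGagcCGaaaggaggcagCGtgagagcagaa
Dmd: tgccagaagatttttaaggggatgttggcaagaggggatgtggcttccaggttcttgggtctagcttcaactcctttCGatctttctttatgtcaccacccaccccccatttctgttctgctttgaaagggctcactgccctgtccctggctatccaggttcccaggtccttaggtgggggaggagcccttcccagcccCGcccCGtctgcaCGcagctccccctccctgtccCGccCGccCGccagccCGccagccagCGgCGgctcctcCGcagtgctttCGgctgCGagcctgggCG
Cntnap2: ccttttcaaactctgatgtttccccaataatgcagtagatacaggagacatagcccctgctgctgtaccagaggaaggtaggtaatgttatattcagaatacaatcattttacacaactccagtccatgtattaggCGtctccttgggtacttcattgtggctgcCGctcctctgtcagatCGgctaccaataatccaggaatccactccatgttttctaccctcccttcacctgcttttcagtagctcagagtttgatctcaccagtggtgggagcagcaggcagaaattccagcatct
Ank2: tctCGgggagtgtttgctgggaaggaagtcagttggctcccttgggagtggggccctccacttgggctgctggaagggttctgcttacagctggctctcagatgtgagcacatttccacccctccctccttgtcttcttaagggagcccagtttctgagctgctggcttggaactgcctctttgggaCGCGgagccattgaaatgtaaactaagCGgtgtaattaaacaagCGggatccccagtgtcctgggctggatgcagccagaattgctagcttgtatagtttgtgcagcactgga
Magi2: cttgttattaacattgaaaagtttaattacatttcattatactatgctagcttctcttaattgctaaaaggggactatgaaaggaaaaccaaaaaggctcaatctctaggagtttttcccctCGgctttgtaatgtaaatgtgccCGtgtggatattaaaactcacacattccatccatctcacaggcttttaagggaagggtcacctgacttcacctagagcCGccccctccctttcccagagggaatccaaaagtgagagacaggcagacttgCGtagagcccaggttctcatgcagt
Kcnip4: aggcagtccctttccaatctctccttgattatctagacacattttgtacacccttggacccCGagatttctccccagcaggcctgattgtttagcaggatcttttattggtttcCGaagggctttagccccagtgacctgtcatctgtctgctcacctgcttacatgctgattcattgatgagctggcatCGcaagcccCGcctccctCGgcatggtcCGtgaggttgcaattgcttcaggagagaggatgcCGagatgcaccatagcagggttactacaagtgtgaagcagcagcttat

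The 4 starts present throughout hold 16 CpGs in Nrxn3, 42 in Nav2, 15 in Robo1 and 14 in Dmd. The 4 that differed between groups hold 3 in Cntnap2, 5 in Ank2, 4 in Magi2 and 7 in Kcnip4. These 8 were chosen with their regions known; over all internal starts of long genes, the 71 with a region had a median of 13 CpGs per 300-base window, the 75 without one a median of 6, and all 32619 annotated windows a median of 7. Among the 71, the median was 15 for the 31 starts whose region was present in all 8 libraries, 12 for the 14 in 7 libraries and 8.5 for the 26 in 2 to 6 libraries. CpG-poor starts also occurred among those present throughout, such as Schip1 with 2 and Lsamp with 3. The 14 starts whose region was called in any comparison below had a median of 7, with 57 in Cacna1c as the highest, KO-only at day 3 and day 3-only in KO. The forkhead letters TGTTTAC or GTAAACA were in 1.41% of the 71 windows with a region and 5.33% of the 75 without one. Over all windows the share was 3.67%. TATAAA or TTTATA, both strands of the TATA letters, were in 2.82% and 17.3%, against 13.7% of all. These are matches of letters in small sets of windows that also differ in CpG content, and they say nothing of binding.

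The share of regions at an internal start was higher among regions found in more libraries. Of the long-gene regions present in all 8 libraries, 24.6% lay at an internal start of their gene, against 0.361% of those present in 2. This rise is not particular to long genes: at a start of any gene, the shares were 31.1% and 0.723% of long-gene regions, and 65.7% and 3.12% of all regions. Of all long-gene regions, 138 of 3146 (4.39%) had a summit in all 8 libraries, against 9.49% of the 20111 regions inside other genes and 15.5% of all regions. No test was made of this, since the regions share libraries and lists.

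**Figure D1:**
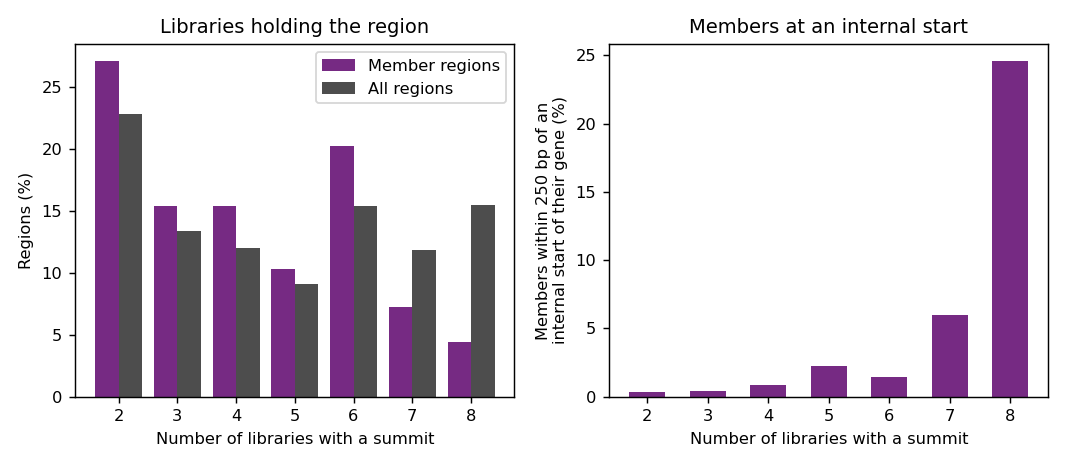
The left plot gives the percent of long-gene regions (purple) and of all regions (grey) by the number of libraries, 2 to 8, in which they had a summit; 4.39% of long-gene regions and 15.5% of all regions reached 8. The right plot gives the percent of long-gene regions within 250 bp of an internal start of their own gene, which was 0.361% for regions in 2 libraries and 24.6% for regions in 8.

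Among the regions found in all 8 libraries the best mean rank belonged to the internal Nrxn3 start, whose window is printed above. Nrxn3 codes for a neurexin, a presynaptic adhesion molecule with long and short forms, and this start lies 1090 kb into the gene. Its summit stood at percentile 94.5 and 98.3 of the KO day 5 lists, 99.2 in both KO day 3 lists, 87.8 and 97.2 of the iHA-Foxk1 day 5 lists, and 99.6 and 99.8 of the iHA-Foxk1 day 3 lists, where 100 is the best-ranked summit of a list. Next among internal starts with a region in all 8 libraries came Pcdh9, a protocadherin, with a mean percentile of 95.4, and Nav2, a cytoskeletal protein induced by retinoic acid, with 91.8. Dmd, the dystrophin gene, had a region 2234 kb from its 5′ end at percentiles of 85.5 and 87.7 in KO day 5 and 89.9 and 76.3 in KO day 3. In iHA-Foxk1 the same Dmd region stood at 3.83 and 56.8 at day 5 and at 95 and 93.9 at day 3, so the shortest list held it near its floor. Regions that ranked as high without an annotated start of their own gene included 1 in Mdga2 (chr12:67059465-67059477), an adhesion gene of the synapse, at a mean percentile of 93, and 1 in Macrod2 (chr2:140671344-140671496) at 96.3, which lies at the start of another gene.

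Long genes were poorer in open chromatin than other genes in every library. Long-gene regions amounted to 16.6 per Mb of gene interior, against 25.1 per Mb for other protein-coding genes over 2 kb, over 190 and 801 Mb. Counting summits rather than regions, over the 14519 best of each list, the ratio of summits per Mb in long over other genes was 0.491 and 0.527 in KO day 5, 0.777 and 0.77 in KO day 3, 0.376 and 0.271 in iHA-Foxk1 day 5, and 0.734 and 0.725 in iHA-Foxk1 day 3. The geometric mean was 0.55, below 1 in 8 of 8 libraries (two-sided exact permutation of signs, p = 0.00781, the smallest possible with 8 libraries). Their rank within full lists differed from that of other intragenic summits by a mean of -1.53 percentile points (two-sided exact permutation, p = 0.438). This mean joins unlike libraries: the mean percentile in iHA-Foxk1 day 5 was 33.7 and 34.8 in long genes, against 41.9 and 41.9 in other genes, while in the other 6 libraries it was 41.5 to 45.4, against 41.8 to 44.4.

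The number of regions per gene followed length only loosely. Every long gene had at least 2 regions, the median was 12.5 and the highest 76. Across genes, which are not independent, Spearman's correlation was 0.52 between gene length and the number of regions and -0.103 between length and regions per Mb. Along the 179 genes with a known strand, cut into 10 equal stretches, the stretch at the 5′ end held 287 of 2462 regions (11.7%), the next 4 held 7.68% to 8.94% each, and the other 5 held 10% to 12.1% each. Genes just above the length limit, from Edil3 at 502 kb to Car10 at 505 kb, held 7 to 13 regions. Genes just under it, from Abca13 at 493 kb to Dnm3 at 496 kb, held 6 to 16.

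The most regions lay in 3 overlapping gene models of chromosome 18, Gm37013 with 76, Gm38666 with 74 and Gm38667 with 73, which span the clustered protocadherins. Protocadherin genes sit side by side there, each with its own promoter, and give neurons individual surface identities. The models enclose 54 annotated protocadherin genes, and 38 of these had a region within 1 kb of an end. Of the 76 regions, 45 lay within 1 kb of an end of another protein-coding gene and 14 were found in all 8 libraries, so these models differ from the other long genes in holding many short genes. No start of this chromosome was used.

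Outside this cluster, the genes with most regions included Macrod2 with 53 regions, Nrxn3 with 50, Pde4d with 44, Ptprn2 with 39, Dlg2 with 35, Cntnap2 with 34, Dlgap1 with 33, Nav2 with 30, and Astn2, Auts2 and Rbms3 with 28 each. Macrod2 removes ADP-ribose from proteins and lies at a fragile site, and Pde4d degrades cyclic AMP. Dlg2 and Dlgap1 are scaffolds of the postsynaptic side, Cntnap2 is a neurexin-type adhesion molecule, Ptprn2 is a phosphatase-like protein of secretory vesicles, and Astn2 serves neuronal migration. Auts2 codes for a nuclear protein that works with a Polycomb complex, and Rbms3 for an RNA-binding protein. Per Mb of interior the order changed: after the protocadherin models came Ptprn2 with 49.3, Nav2 with 46.2, Dlgap1 with 38.8, Ank2, a membrane-skeleton adaptor, with 36.4, Zfhx3, a homeodomain zinc-finger factor, with 35.3, and Rarb, a retinoic acid receptor, with 33.9, level with Pde4d.

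At day 5 the interior of long genes held a smaller share of the best-ranked summits than at day 3, in both genotypes. Of the 14519 best summits, 2.14% and 2.3% lay inside long genes in KO at day 5, against 3.35% and 3.36% in KO at day 3. In iHA-Foxk1 they were 1.96% and 1.37% at day 5, against 3.37% and 3.35% at day 3. Neither genotype overlapped between days. The mean in KO was 2.22 ± 0.112% at day 5 and 3.35 ± 0.00974% at day 3 (SD, n = 2 each). In iHA-Foxk1 it was 1.66 ± 0.414% at day 5 and 3.36 ± 0.00974% at day 3. Day 5 minus day 3 was -1.13 percentage points in KO and -1.7 in iHA-Foxk1, a mean of -1.42 (two-sided exact permutation within genotypes, p = 0.0556, the smallest that 36 arrangements allow). The design cannot pass 0.05 here. Relative to other genes, day 5 minus day 3 was -0.898 on the log2 scale of the density ratio (exact permutation, p = 0.0556), a measure added after the data were seen.

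The share of summits within 1 kb of a protein-coding gene end was higher at day 5, with 61.9% and 60.5% in KO day 5, against 51.9% and 51.9% in KO day 3, and 58.4% and 62.8% in iHA-Foxk1 day 5, against 50.8% and 50.6% in iHA-Foxk1 day 3. Its part in the lower share inside long genes was not tested. Interiors of other genes held 18.4% and 18.4% in KO day 5, against 18.2% and 18.4% in KO day 3, and 22% and 21.3% in iHA-Foxk1 day 5, against 19.4% and 19.5% in iHA-Foxk1 day 3. With the shortest list left out and 34040 summits per list, long genes held 3.69% and 3.72% in KO day 5, against 4.2% and 4.12% in KO day 3, and 2.9% in the remaining iHA-Foxk1 day 5 library, against 4.42% and 4.22% in iHA-Foxk1 day 3.

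**Figure D2:**
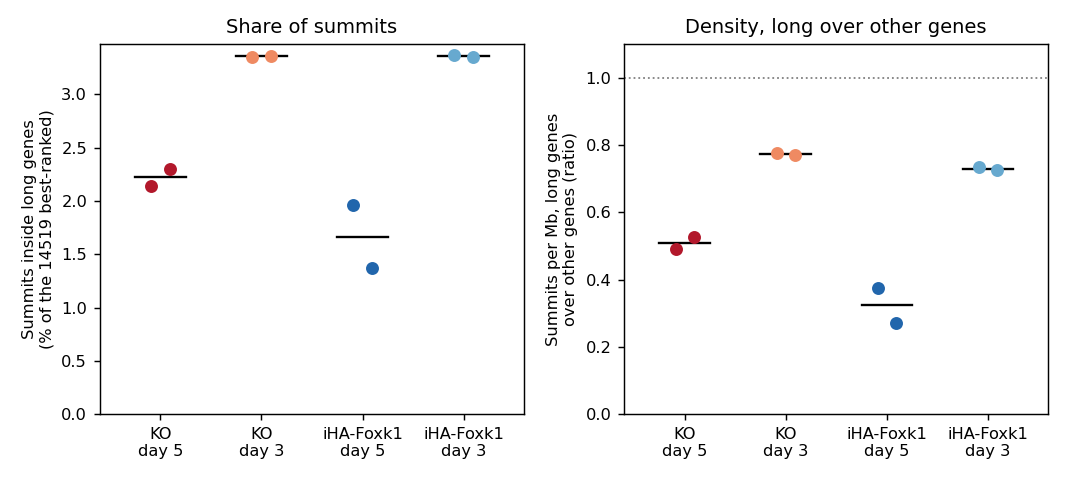
Each point is 1 library and each line the mean of 2 libraries. The left plot gives the percent of the 14519 best-ranked summits that lay inside long genes, from 1.37% to 2.3% at day 5 and from 3.35% to 3.37% at day 3; the right plot gives summits per Mb in long genes over summits per Mb in other genes, with the dotted line at equal density, and all 8 libraries lie below it.

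By region, the day 3-only share of the long genes stood above that of all regions in both genotypes. A region was called day 3-only when both day 3 libraries and neither day 5 library had a summit among the best N, and day 5-only in the reverse case, over regions with a summit in both libraries of at least 1 day. In iHA-Foxk1, with N = 14519, 36 of 435 long-gene regions were day 5-only (8.28%, against 14.3% of all regions and 19.6% of those in other genes). In the opposite direction 275 of 435 were day 3-only (63.2%, against 22.3% of all regions and 25.4% in other genes). No summit of any score was found at day 5 for 197 of the 275. Without the shortest list, with N = 34040, 272 of 1509 were day 5-only (18%, against 28.6% in other genes). In the opposite direction 799 were day 3-only (52.9%, against 26% in other genes). The shares of all regions, 30.2% and 24.4%, are not a like measure here. With 1 library left in a group they also count regions found in that library alone, which the long-gene and other-gene regions leave out.

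The best-ranked day 3-only regions of iHA-Foxk1 included those in Cntn5, a contactin (chr9:10713838-10713888), Lrp1b, a lipoprotein receptor (chr2:40911023-40911141), Fhit, a nucleotide hydrolase at a fragile site (chr14:10496424-10496832), and Sox5, an SRY-related factor (chr6:144361430-144361530). The Lrp1b region stood at percentiles of 97.3 and 96 at day 3 of iHA-Foxk1 and had no summit in either day 5 library. In KO it was present throughout, at percentiles of 85.1 and 80.2 at day 5 and of 97.3 and 98 at day 3. The Cntn5 and Sox5 regions had this pattern too, a summit in all 6 libraries other than iHA-Foxk1 day 5 and none in those 2. In full lists this pattern was held by 568 long-gene regions (18.1%), against 9.67% of regions in other genes and 12.1% of all; full lists are shortest in iHA-Foxk1 at day 5. Among the best 14519 summits it was held by 69 long-gene regions (2.19%, against 1.44% of all).

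In KO, with N = 42129, 148 of 1757 long-gene regions were day 5-only (8.42%, against 8.53% of all regions and 13.1% in other genes), a share close to that of all regions. The day 3-only regions numbered 307 (17.5%, against 10.5% of all regions and 11.7% in other genes), and 274 of them had no summit of any score at day 5. The best-ranked day 3-only region of KO lay in Sgcz, a sarcoglycan (chr8:37579905-37579995), at percentiles of 81.2 and 86.2 at day 3. Some pairs were close neighbours: in Fam155a a day 5-only region (chr8:9551441-9551583) lay 280 bp from a day 3-only region (chr8:9551863-9551938), and in Gpc6, a glypican, such a pair lay 335 bp apart. Such pairs lie within a short stretch, but 262 of the 307 day 3-only regions had no day 5 summit within 1 kb. The 2 genotypes share no library, and 17 regions were day 3-only in both, 5.54% of the 307 in KO and 6.18% of the 275 in iHA-Foxk1. Over all regions these shares were 5.63% and 7.18%, so the overlap in long genes was near the background. For day 5-only regions the number was 6, 4.05% of the 148 in KO and 16.7% of the 36 in iHA-Foxk1, beside 7.07% and 11.4% over all regions. The calls were cut at 42129 summits in KO and 14519 in iHA-Foxk1, so these overlaps do not measure how far the genotypes share a change. At 14519 in every list, 52 long-gene regions had a summit in all 4 day 3 libraries and no day 5 library (1.65%, against 0.847% of all).

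By gene, the regions with a summit were counted in each library, for the 210 long genes with at least 5 regions, and set beside 1131 other genes with at least 5 regions. The number of regions per gene bears on how readily counts separate without ties. It was not matched between the sets, here or in the counts by gene below. Overlapping models, such as those of the protocadherins, count as separate genes. In iHA-Foxk1 106 long genes (50.5%) had fewer occupied regions in both day 5 libraries than in either day 3 library, against 14.8% of other genes. More regions at day 5 were found in 3 long genes (1.43%), against 15% of other genes. In KO 73 long genes (34.8%) had fewer at day 5, against 15.2% of other genes, and 23 (11%) had more, against 19.6% of other genes. Without the shortest list, iHA-Foxk1 had fewer at day 5 in 168 long genes (80%), against 33.8% of other genes, and more in 12 (5.71%), against 29.9%. Here N was 34040 and 1 library stood for day 5, so counts separate more readily. Regions found in that library alone do not count, in either gene set. Its list had 987 summits in long genes and 710 occupied regions. The full day 3 lists of iHA-Foxk1 had 2566 and 2519 summits and 2212 and 2200 occupied regions. The part of this in the counts by gene was not tested.

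Nrxn3 had the most day 3-only regions outside the protocadherins in both genotypes, 7 in KO and 9 in iHA-Foxk1. Its occupied regions numbered 20 and 17 in KO day 5, against 27 and 30 in KO day 3, and 4 and 2 in iHA-Foxk1 day 5, against 11 and 12 in iHA-Foxk1 day 3. Neither genotype overlapped between days. In iHA-Foxk1 Cntnap2 followed with 7 day 3-only regions. It had 0 and 0 occupied regions at day 5, against 7 and 8 at day 3 (on full lists 0 and 9, against 26 and 24). Astn2, with 7 day 3-only regions as well, had 3 and 3, against 10 and 9. Pde4d had 7 and 6 occupied regions in iHA-Foxk1 day 5, against 13 and 13 at day 3. In KO its 24 and 21 at day 5 overlapped its 23 and 25 at day 3 at N = 42129, but at N = 14519 its 8 and 6 at day 5 lay below its 11 and 9 at day 3.

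Nav2 had more occupied regions at day 5 than at day 3 in KO at N = 42129. Together with Arhgap26, a GTPase-activating protein, it had the most day 5-only regions in KO, 5 each. Nav2 had 17 and 16 occupied regions in KO day 5, against 15 and 13 in KO day 3; the days overlapped on full lists, with 23 and 16, against 17 and 17, and at N = 14519, with 2 and 2, against 2 and 2. In iHA-Foxk1 its 3 and 4 at day 5 overlapped the 3 and 1 of day 3. Frmd4a, a scaffold of epithelial polarity, had 4 day 5-only regions in KO, with 14 and 15 occupied regions at day 5, against 9 and 11 at day 3. Schip1 and Iqschfp, overlapping models that share regions, had 4 each as well.

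**Figure D3:**
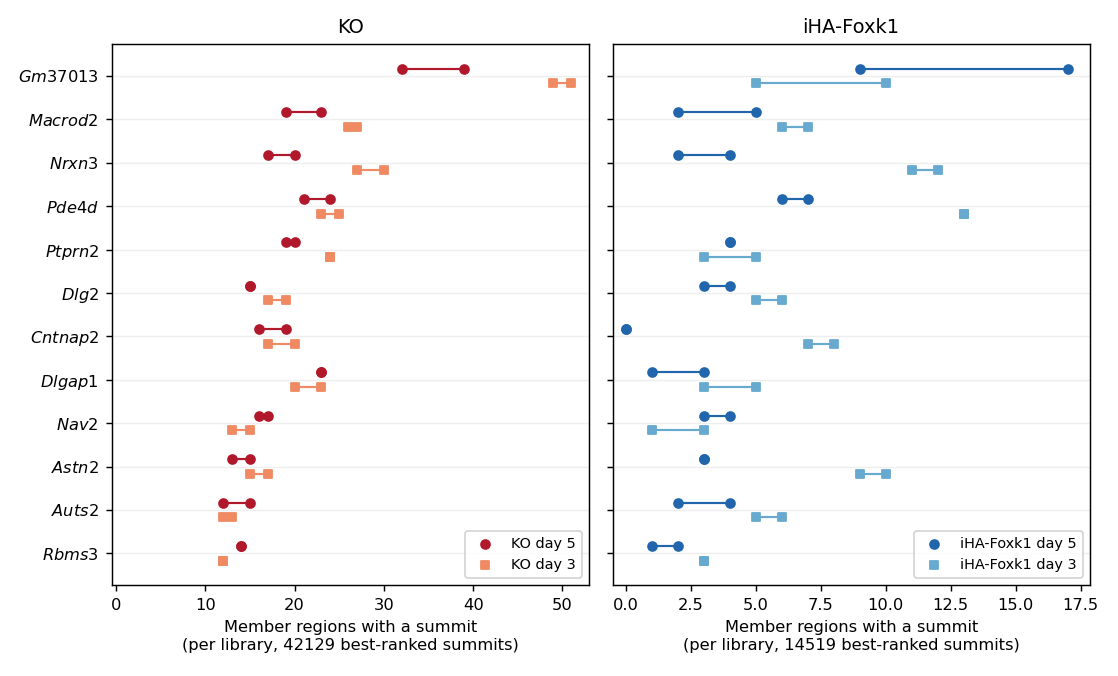
Each symbol is 1 library, day 5 as circles and day 3 as squares, joined within a group. The horizontal axis counts long-gene regions with a summit among the 42129 best of each KO list (left) or the 14519 best of each iHA-Foxk1 list (right), for 12 leading genes, with Gm37013 standing for the 3 protocadherin models; Nrxn3 shows 20 and 17 in KO day 5, against 27 and 30 in KO day 3, and Nav2 17 and 16, against 15 and 13.

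**Figure D4:**
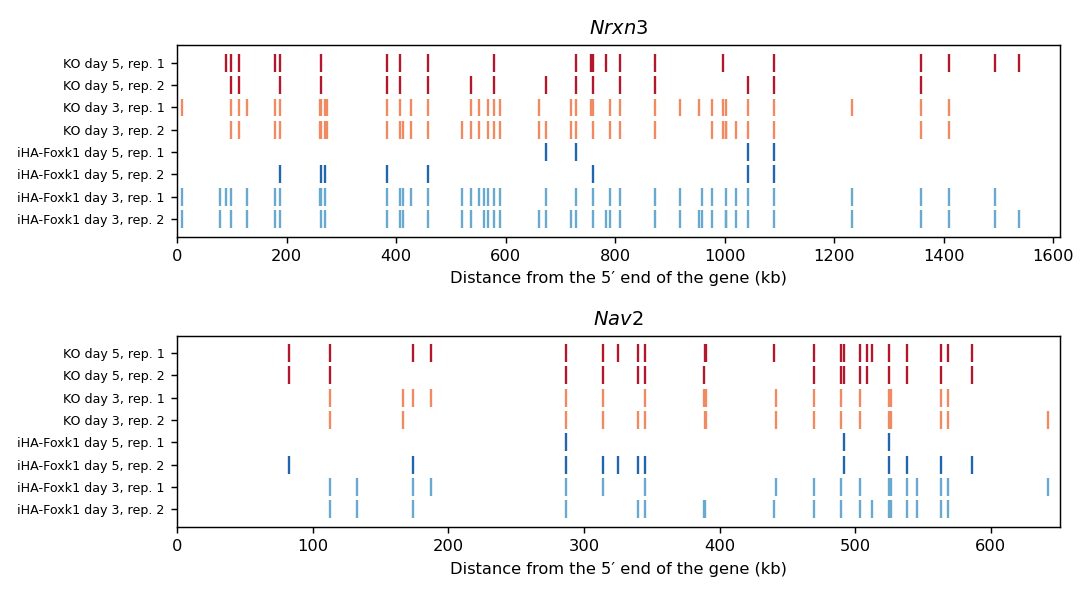
Each tick is a long-gene region of Nrxn3 (above) or Nav2 (below) with a summit in that library, from the full lists, placed by its distance in kb from the 5′ end of the gene. Nrxn3 had 22 and 17 occupied regions in KO day 5, 37 and 36 in KO day 3, 4 and 8 in iHA-Foxk1 day 5 and 39 and 41 in iHA-Foxk1 day 3, and the column of ticks at 1090 kb is its internal start.

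Between genotypes at day 3 the interior of long genes held the same share of the best 14519 summits, 3.35% and 3.36% in KO and 3.37% and 3.35% in iHA-Foxk1, and the values overlapped. Yet individual regions differed in both directions. With N = 53456, 301 of 2460 long-gene regions were KO-only (12.2%, against 9.59% of all regions and 10.8% in other genes), and 309 were found only in iHA-Foxk1, called iHA-only (12.6%, against 9.4% of all and 11.6% in other genes), so both shares lay close to the background. Lsamp, an adhesion molecule anchored in the membrane, had the most KO-only regions, 7, with 23 and 23 occupied regions in KO, against 17 and 16 in iHA-Foxk1. Ptprg, a receptor phosphatase, had 6 KO-only regions, with 11 and 12 occupied regions in KO, against 4 and 6 in iHA-Foxk1. Rarb had 5, with 13 and 12 in KO, against 8 and 10 in iHA-Foxk1. Pde4d had the most iHA-only regions, 10, and Macrod2 had 9. Macrod2 had 33 and 32 occupied regions in KO, against 41 and 39 in iHA-Foxk1. Tenm4, a teneurin needed for gastrulation in the mouse, had 6 regions only in iHA-Foxk1, with 12 and 10 occupied in KO, against 17 and 20. At N = 14519 the genotypes overlapped in Lsamp, with 7 and 6 in KO, against 8 and 7 in iHA-Foxk1. They also overlapped in Macrod2, with 8 and 5, against 6 and 7, and in Ptprg, with 2 and 1, against 1 and 1. Rarb, with 4 and 3, against 2 and 2, and Tenm4, with 2 and 3, against 6 and 4, kept their direction.

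The best-ranked KO-only and the best-ranked iHA-only region of day 3 were neighbours inside Tmem132d, a membrane protein gene. The KO-only region (chr5:127875393-127875545) stood at percentiles of 96.2 and 90.1 in KO, and the iHA-only region (chr5:127876015-127876208) at 93 and 90.7 in iHA-Foxk1. The nearest iHA-Foxk1 summit lay 470 bp from the KO-only region. Fgf12, an intracellular member of the FGF family, held another such pair, with the nearest summit of the other genotype at 725 and 596 bp. Over all long-gene regions 268 of the 301 KO-only and 251 of the 309 iHA-only regions lay more than 1 kb from any summit of the other genotype. By gene, 52 of 210 long genes (24.8%) had more occupied regions in both KO libraries than in either iHA-Foxk1 library, against 17.3% of other genes, and 50 (23.8%) had fewer, against 17.7%.

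At day 5 long genes held 2.14% and 2.3% of summits in KO, against 1.96% and 1.37% in iHA-Foxk1, without overlap. KO minus iHA-Foxk1 was 0.558 percentage points at day 5 and -0.00689 at day 3, a mean of 0.276 (two-sided exact permutation within days, p = 0.278), which ranged from 0.0827 with N divided by 2 to 0.745 on full lists. The difference between these days was 0.565 (exact permutation of the interaction, p = 0.111), so neither passed 0.05. The log2 density ratio of long over other genes was 0.378 higher in KO over both days (exact permutation, p = 0.0556, the smallest possible). It was 0.159 with N divided by 2 (exact permutation, p = 0.389), 0.288 on full lists (exact permutation, p = 0.278) and 0.284 without the shortest list (exact permutation, p = 0.278).

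By region, with N = 14519, 129 of 281 long-gene regions were KO-only at day 5 (45.9%, against 12.3% of all regions and 12.8% in other genes). The iHA-only regions numbered 33 (11.7%, against 8.32% of all and 14.6% in other genes). Of the 129, 78 had no summit of any score in iHA-Foxk1, whose lists at this day are the shorter ones. Without the shortest list, with N = 34040, 582 of 1292 were KO-only (45%, against 20.9% in other genes). Only in iHA-Foxk1 were 216 found (16.7%, against 20.1% in other genes). The shares of all regions, 20.1% and 26.6%, are not a like measure here, since they also count regions found in the 1 remaining iHA-Foxk1 library alone. This comparison and that of days in iHA-Foxk1 share the iHA-Foxk1 day 5 libraries.

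Dmd had the most KO-only regions at day 5, 4, with 5 and 6 occupied regions in KO, against 2 and 1 in iHA-Foxk1. Ptprn2, Cntnap2, Fgf14 and Lrp1b had 3 each. Cntnap2 had 5 and 4 occupied regions in KO, against 0 and 0 in iHA-Foxk1, and Lrp1b 4 and 3, against 0 and 0. These counts hold for the cut at 14519. On full lists Cntnap2 had 19 and 19, against 0 and 9, and Lrp1b 9 and 7, against 0 and 1. Of the internal starts printed above, those of Cntnap2 and Ank2 were KO-only at this day. The Cntnap2 start stood at percentiles of 80.8 and 65.8 in KO; in iHA-Foxk1 replicate 1 had no summit and replicate 2 stood at 54.5, outside its best 14519. Dlg2, Nav2, Nfia and Mecom had the most regions found only in iHA-Foxk1, 2 each. Nfia, a nuclear factor I gene, had 3 and 4 occupied regions in KO, against 6 and 6 in iHA-Foxk1, and Mecom, a zinc-finger factor of blood stem cells, 2 and 3, against 4 and 5. On full lists Nfia had more in KO, 13 and 11, against 6 and 10, and Mecom overlapped, with 7 and 6, against 4 and 6.

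By gene, 59 of 210 long genes (28.1%) had more occupied regions in both KO libraries than in either iHA-Foxk1 library at day 5, against 6.9% of other genes, and 11 (5.24%) had fewer, against 14.7%. Without the shortest list the numbers were 143 (68.1%, against 32.1% of other genes) and 16 (7.62%, against 22.6%). The protocadherin cluster was among those with fewer, and each of its overlapping models counts as a gene here. Gm37013, Gm38666 and Gm38667 each had 5 and 6 occupied regions in KO, against 17 and 9 in iHA-Foxk1. On full lists, which are shorter in iHA-Foxk1, the direction was reversed, with 44 and 39 in KO for Gm37013, against 17 and 34.

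**Figure D5:**
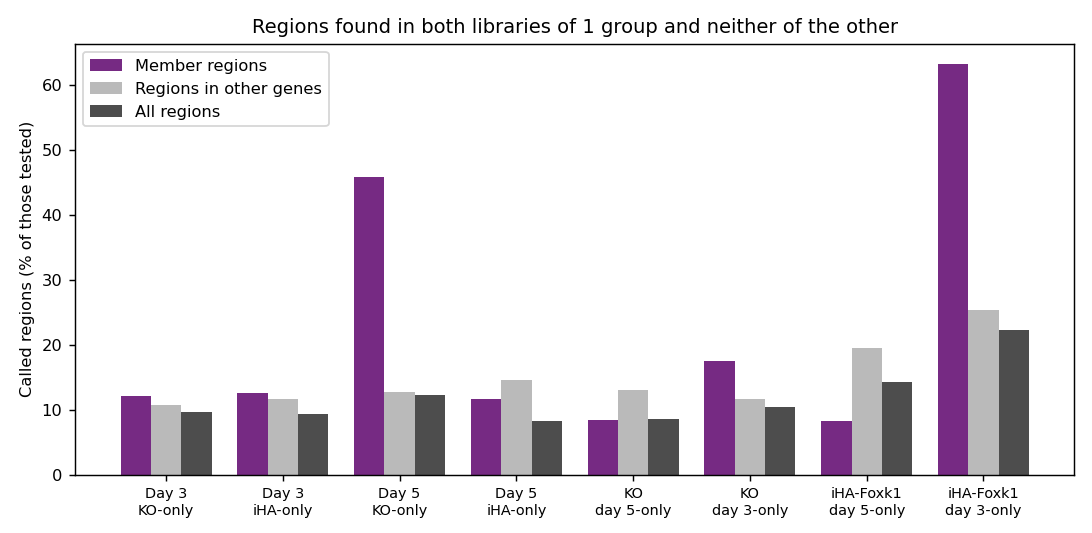
Bars give the percent of tested regions found in both libraries of 1 group and neither of the other, for long-gene regions (purple), regions in other genes (light grey) and all regions (dark grey). The long-gene share stands furthest from that of all regions for KO-only regions at day 5 (45.9%, against 12.3%) and for day 3-only regions in iHA-Foxk1 (63.2%, against 22.3%); at day 3 the genotypes differ little from the background (12.2%, against 9.59%, and 12.6%, against 9.4%).

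Long genes of 5 classes were followed as groups. Of 33 listed adhesion and polarity genes, 30 passed the length limit and held 570 regions; of 23 signalling and guidance genes 21 passed, with 334 regions; of 20 transcription and chromatin factors 12, with 179; of 13 channel and glutamate receptor genes 12, with 138; and of 13 fragile-site genes 12, with 196. Among the best 14519 summits, the adhesion genes had 55 and 59 occupied regions in KO day 5, against 95 and 95 in KO day 3. In iHA-Foxk1 they had 41 and 27 at day 5, against 109 and 106 at day 3. The transcription factors, among them Foxp1, Sox5, Sox6, Nfia and Zbtb20, had 22 and 25 in KO day 5, against 29 and 25 in KO day 3, and 20 and 27 in iHA-Foxk1 day 5, against 30 and 33 in iHA-Foxk1 day 3. Over all long genes the numbers were 306 and 328 in KO day 5, against 482 and 488 in KO day 3, and 237 and 186 in iHA-Foxk1 day 5, against 487 and 485 in iHA-Foxk1 day 3. These counts take only regions found in at least 2 of the 8 libraries. All summits inside long genes numbered 311 and 334 in KO day 5, against 486 and 488 in KO day 3. In iHA-Foxk1 they numbered 284 and 199 at day 5, against 489 and 487 at day 3. Summits and occupied regions thus lay furthest apart at iHA-Foxk1 day 5. The days did not overlap in either genotype over the adhesion genes or over all long genes, and over the factors they overlapped at 25 in KO. The difference between classes was not tested.

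By region, in iHA-Foxk1 the day 3-only share was 72.3% of 94 tested adhesion regions, 66.7% of 45 signalling regions, 66.7% of 18 channel regions, 65% of 20 fragile-site regions and 56.2% of 32 factor regions, beside 63.2% over all long-gene regions and 22.3% of all regions. In KO the day 5-only share was 15.3% of 98 factor regions, 6.29% of 318 adhesion regions, 5.91% of 186 signalling regions, 5.61% of 107 fragile-site regions and 2.9% of 69 channel regions. Over all long-gene regions it was 8.42%, and over all regions 8.53%. The day 3-only shares in KO were 18.4% of the factor, 17.9% of the adhesion, 19.9% of the signalling, 20.6% of the fragile-site and 15.9% of the channel regions. Over all long-gene regions that share was 17.5%, and over all regions 10.5%. KO-only regions at day 5 made up 63.2% of 19 fragile-site regions, 58.3% of 12 channel regions, 58.1% of 31 signalling regions, 50% of 44 adhesion regions and 40.7% of 27 factor regions, beside 45.9% of all long-gene regions and 12.3% of all regions. At day 3 KO-only regions were 16% of 156 fragile-site regions, 15.6% of 270 signalling regions, with Ptprg and Robo1 in this list, 11.6% of 112 channel regions, 10.9% of 460 adhesion regions and 8.47% of 118 factor regions, beside 12.2% of all long-gene regions and 9.59% of all regions. The iHA-only shares were 13.5% of the fragile-site, 13.3% of the signalling, 17% of the channel, 13.9% of the adhesion and 16.1% of the factor regions, beside 12.6% of all long-gene regions and 9.4% of all regions. The lists were not tested against each other, and genes of a list share these libraries.

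Of the 68 regions at an internal start, 64 were tested between genotypes at day 3, where 1 was KO-only (1.56%, against 9.59% of all regions) and 2 were iHA-only (3.12%, against 9.4%). At day 5 32 were tested, and 3 were KO-only (9.38%, against 12.3%) and 0 iHA-only (against 8.32%). Between days 61 were tested in KO, with 2 day 5-only (3.28%, against 8.53%) and 3 day 3-only (4.92%, against 10.5%). In iHA-Foxk1 33 were tested, with 3 day 5-only (9.09%, against 14.3%) and 3 day 3-only (9.09%, against 22.3%). The day 3-only starts in iHA-Foxk1 included that of Magi2, a scaffold of cell junctions, at percentiles of 81.1 and 80.2 at day 3 and with no summit at day 5. The day 3-only starts in KO included that of Kcnip4, a potassium-channel interacting protein, at percentiles of 41.5 and 66.2 at day 3 and with no summit at day 5.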

How the data were processed

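ATAC-seq was measured in 12 libraries, of which the 8 of days 3 and 5 define the regions. The submitters' processing notes name Bowtie2 2.2.4, MACS2 and the build mm10 as used by the authors; the MACS2 version is not given in the sources used here. The authors deposited 1 list of summits per library, unpooled, each summit with a −log10 score; whether of a p-value or a q-value is not stated. Scores were used for ranks inside a list and nothing else. Read depth is unknown, so no counting error is given. Summits outside chromosomes 1 to 19 and X were left out.

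Summits were merged by single linkage at 250 bp. Genes and starts came from RefSeq tables of GRCm38.p6; no start of chromosome 18 was used, and no exons were available in these tables. Lists were cut to the N best-ranked summits, where N is the size of the shortest among them. Values per library were tested by two-sided exact permutation, of genotype within days or days within genotypes (36 arrangements), or of the sign in each library. Within 1 day or genotype, 2 against 2 libraries allow no test below 0.05 and none was made. Calls of regions are counts, set beside all regions.

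The members and gene lists were chosen with earlier results of these data known. Named genes were the 15 with most regions, the 10 with most per Mb, up to 5 per direction and comparison with most called regions, and genes of 5 listed classes; no long gene lacked a region. Values of 1 named gene are not reported here. Named regions were the best-ranked 5 per direction and 10 found in all 8 libraries; starts to print were picked with their values known. Python 3.11.15, numpy 2.4.6, pandas 2.3.3 and matplotlib 3.10.9 were used, and the code was tested on simulated data.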

Additional observations from a re-analysis of the deposited data

Results flagged for a closer look

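At the list lengths used above, some genes had differences of opposite sign in the 2 contrasts, with every library of a group on the same side; these differences were not tested. In Gm37013, Gm38666 and Gm38667, the overlapping protocadherin models, KO minus iHA-Foxk1 was -7.5, -7.5 and -7.5 occupied regions at day 5 and 3.5, 4.5 and 4 at day 3. In Ank2 it was 1.5 at day 5 and -2.5 at day 3. Between days, Arhgap26 had 3.5 more occupied regions at day 5 in KO and a difference of -3 in iHA-Foxk1. Rbms3 had differences of 2 in KO and -1.5 in iHA-Foxk1, and Tenm4 of 2.5 and -2.5. Each value is a difference of means over 2 libraries, and the lists of the 2 contrasts were cut at different lengths. At a common N of 14519 none of these opposite directions held. Gm37013 then had 7 and 6 in KO, against 10 and 5 in iHA-Foxk1, at day 3, and Ank2 had 4 and 5, against 4 and 4. In KO, Arhgap26 had 1 and 2 at day 5, against 2 and 3 at day 3, Rbms3 1 and 1, against 2 and 2, and Tenm4 2 and 3, against 2 and 3.

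The day 10 libraries entered no comparison above. Of their 4028 best-ranked summits, 1.24% and 1.29% lay inside long genes in KO, a mean of 1.27 ± 0.0351% (SD, n = 2), against 0.72% and 0.844% in Control, a mean of 0.782 ± 0.0878% (SD, n = 2), so that KO stood above Control without overlap. Peak names at day 10 lack the tag for removed duplicates that the earlier lists carry, so a day and a change of processing cannot be told apart.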

How the results depend on the processing

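The day 5 minus day 3 difference of the long-gene share kept its direction under each of the other settings, from -0.723 with a gene length minimum of 1 Mb to -1.87 with N divided by 2, and from -1.45 to -0.937 without any 1 library. The density ratio of long over other genes stayed below 1 in each setting, from 0.368 with N divided by 2 to 0.746 against other genes of 100 to 500 kb, with 0.681 more than 5 kb from the ends and 0.524 to 0.634 without any 1 library. The genotype difference of the share between days was -0.234 with N divided by 2 and 1.65 on full lists, against 0.565, and 0.272 to 0.969 without any 1 library. The rank difference of -1.53 percentile points was 0.142 when regions lay more than 5 kb from the ends and 0.812 against other genes of 100 to 500 kb. The number of regions was 1187 with a gene length minimum of 1 Mb and 648 among the 14519 best summits. The cause of these changes was not tested, beyond the smaller number of genes or summits. Of the 15 genes with most regions, 13 remained with at least 3 libraries and 11 with the 14519 best summits.

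Genotype differences of the share, 0.276 over both days, ran from 0.0827 with N divided by 2 to 0.745 on full lists, with 0.141 at a gene length minimum of 1 Mb and 0.129 to 0.322 without any 1 library.

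Counts of called regions moved with list length and with the libraries kept. With full lists 833 were KO-only at day 5, 559 were day 3-only in KO and 1407 in iHA-Foxk1; 186 long genes then had more occupied regions in KO at day 5, and 143 in KO and 201 in iHA-Foxk1 had fewer at day 5 than at day 3. With N divided by 2 the KO-only and iHA-only counts were 134 and 175 at day 3 and 8 and 5 at day 5, and the day 5-only and day 3-only counts 47 and 129 in KO and 5 and 94 in iHA-Foxk1. With absence judged on full lists there were 78 KO-only and 4 iHA-only regions at day 5, and 88 and 12 day 5-only regions in KO and iHA-Foxk1. Leaving out 1 library lets a lone library stand for its group, and leaving out iHA-Foxk1 day 5 replicate 1 also raises N from 14519 to 34040 in the comparisons it enters, so these changes cannot be told apart. KO-only regions then numbered 365 to 446 at day 3 and 152 to 582 at day 5, iHA-only regions 360 to 429 and 42 to 216, day 5-only regions 190 to 297 in KO and 40 to 272 in iHA-Foxk1, and day 3-only regions 428 to 527 and 297 to 799. The long genes with more occupied regions in KO at day 5 numbered 77 to 143, and those with fewer at day 5 numbered 98 to 120 in KO and 117 to 168 in iHA-Foxk1. The upper values of the day 5 genotype comparison and of the days in iHA-Foxk1 came without iHA-Foxk1 day 5 replicate 1, and those of the days in KO without KO day 5 replicate 2. Settings on genes, on density by day and genotype, and on the protocadherin models were chosen after seeing the data.

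Replicate numbers did not pair the libraries: the correlation of replicate differences between groups was -0.0847 to 0.127. With the replicate number as a block the share difference between days was -1.42 (exact permutation, p = 0.125), between genotypes 0.276 (p = 0.375) and their interaction 0.565 (exact permutation, p = 0.25).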

Other observations

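A pattern held in all 4 KO libraries and no iHA-Foxk1 library of days 3 and 5 was found in full lists for 62 long-gene regions (1.97%, against 1.42% of all regions), and the reverse pattern for 3 (0.0954%, against 0.102%). All 4 day 5 libraries and no day 3 library held 6 long-gene regions (0.191%, against 0.236% of all), and all 4 day 3 libraries and no day 5 library held 230 (7.31%, against 4.52%). Full lists are shorter at day 5. With 14519 summits in each list, the KO pattern was held by 19 long-gene regions (0.604%, against 0.316% of all) and its reverse by 2 (0.0636%, against 0.0916%). The day 5 pattern was then held by 3 (0.0954%, against 0.767%) and the day 3 pattern by 52 (1.65%, against 0.847%).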
